A study of Mus musculus with 24 samples.

Results

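Keratins are the intermediate filament proteins of epithelial cells, and 10 of them were followed in skin: the wound or stress keratins Krt6a, Krt6b, Krt16 and Krt17, the basal keratins Krt5, Krt14 and Krt15, and the suprabasal keratins Krt1, Krt10 and Krt2. They were taken by gene symbol, as named members of these 3 classes, from the 18193 genes measured. All 10 were represented on the arrays. Expression was measured on 24 Affymetrix arrays, 4 for each of 6 groups. Every recipient was a female RAG2-/- mouse, which cannot assemble antigen receptors and so makes no T or B cells of its own. In the GVH-SSc groups, which model graft-versus-host disease with scleroderma-like skin, the mice had been given B10.D2 splenocytes. They also had either anti-IFNAR1, an antibody to one subunit of the receptor for type I interferons, or an isotype control antibody. Syngeneic mice, which the titles call controls, had been given Balb/c splenocytes, and no antibody is named for them. The graft and the antibody therefore cannot be told apart in isotype against syngeneic skin if the syngeneic mice had none. Dorsal scapular skin that had been shaved was taken at day 28 or day 14. Ages are not given in the labels. Nor do they say whether each array is a different animal, so p-values measure only the spread between these samples.

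A keratin filament is built from pairs of a type II and a type I chain. Krt5 and Krt14 form the pair of dividing basal keratinocytes, Krt15 is a further basal type I keratin and is also known from the hair follicle bulge, and Krt1 and Krt10 replace the basal pair when cells leave the basal layer. Krt2 belongs to the upper suprabasal layers, in the mouse mostly of ear, tail and sole. Krt6a, Krt6b, Krt16 and Krt17 are normally made in hair follicles, nails and other appendages, and keratinocytes between the follicles switch them on at wound edges and in inflamed skin. In the RefSeq annotation of the GRCm38.p6 assembly the type II genes Krt6b, Krt6a and Krt5 are neighbours on chromosome 15, as are Krt2 and Krt1. The type I genes Krt14, Krt16 and Krt17 are neighbours on chromosome 11, which also holds Krt15 and Krt10.

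Levels are probe set intensities as deposited, in linear array units, and tests were made on log2(intensity + 16). Each gene is read from its probe set with the highest mean. Krt6a and Krt14 had 3 probe sets each, Krt17 had 2 and the other 7 keratins had 1 each. Changes are given as log2 differences of group means with their standard errors from limma, and a gene is called when its p-value, adjusted by Benjamini-Hochberg over all 18193 genes, lies below 0.05. The offset of 16 shrinks the changes of dim genes, so the folds of Krt6b and Krt16, which were dim in syngeneic skin, are understated. Levels of different keratins come from different probes and are not compared with each other.

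The arrays had median intensities between 14.8 and 17.7. Rag2 read 7 to 16 units on all 24 arrays, and Ifnar1 read 92 to 384 units with no call in any comparison. A list of 8 epidermal keratinocyte markers had a mean between 11 and 12.4 on the log2(intensity + 16) scale on every array, so all 24 held epidermal RNA. Content of other kinds varied within groups. The mean of 22 hair follicle genes, again on the log2(intensity + 16) scale, ran from 4.87 to 13.04 in anti-IFNAR1 skin at day 28, from 4.83 to 7.55 in isotype skin and from 6.5 to 11.62 in syngeneic skin of that day. The log2 ratio of the 3' to the 5' Gapdh control probe sets, a measure of RNA integrity, lay between 0.62 and 6.27. At day 14 the 4th isotype array stood apart: its mean over the 4 stress keratins was 10.36, against 14.84 to 14.97 on the other 3 arrays of its group, all on the log2(intensity + 16) scale. Its T cell and macrophage means were 9.0 and 11.63, against 8.63 to 9.17 and 11.70 to 12.04 on those 3. The main keratin changes that use this array are also given without it. It was singled out by these same keratins, so larger changes and smaller p-values without it follow in part from that choice. They are a description and no separate support.

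At day 28 isotype skin differed from syngeneic skin in 6 of the 10 keratins. All 4 stress keratins were higher than in syngeneic skin, by 2.27-fold for Krt17 up to 376-fold for Krt6b. Basal Krt14 was also higher, at 2.13-fold, and basal Krt15 was 4.56-fold lower. Krt5, Krt1, Krt10 and Krt2 were not called. In all, 5 rose and 1 fell, and 7 had an unadjusted p below 0.05, against 27% of all genes. Of all genes 16.3% were called in this comparison, 6.66% higher and 9.69% lower. Whether more cells made a keratin or each cell held more of its RNA cannot be told apart in bulk skin.

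**Figure D1:**
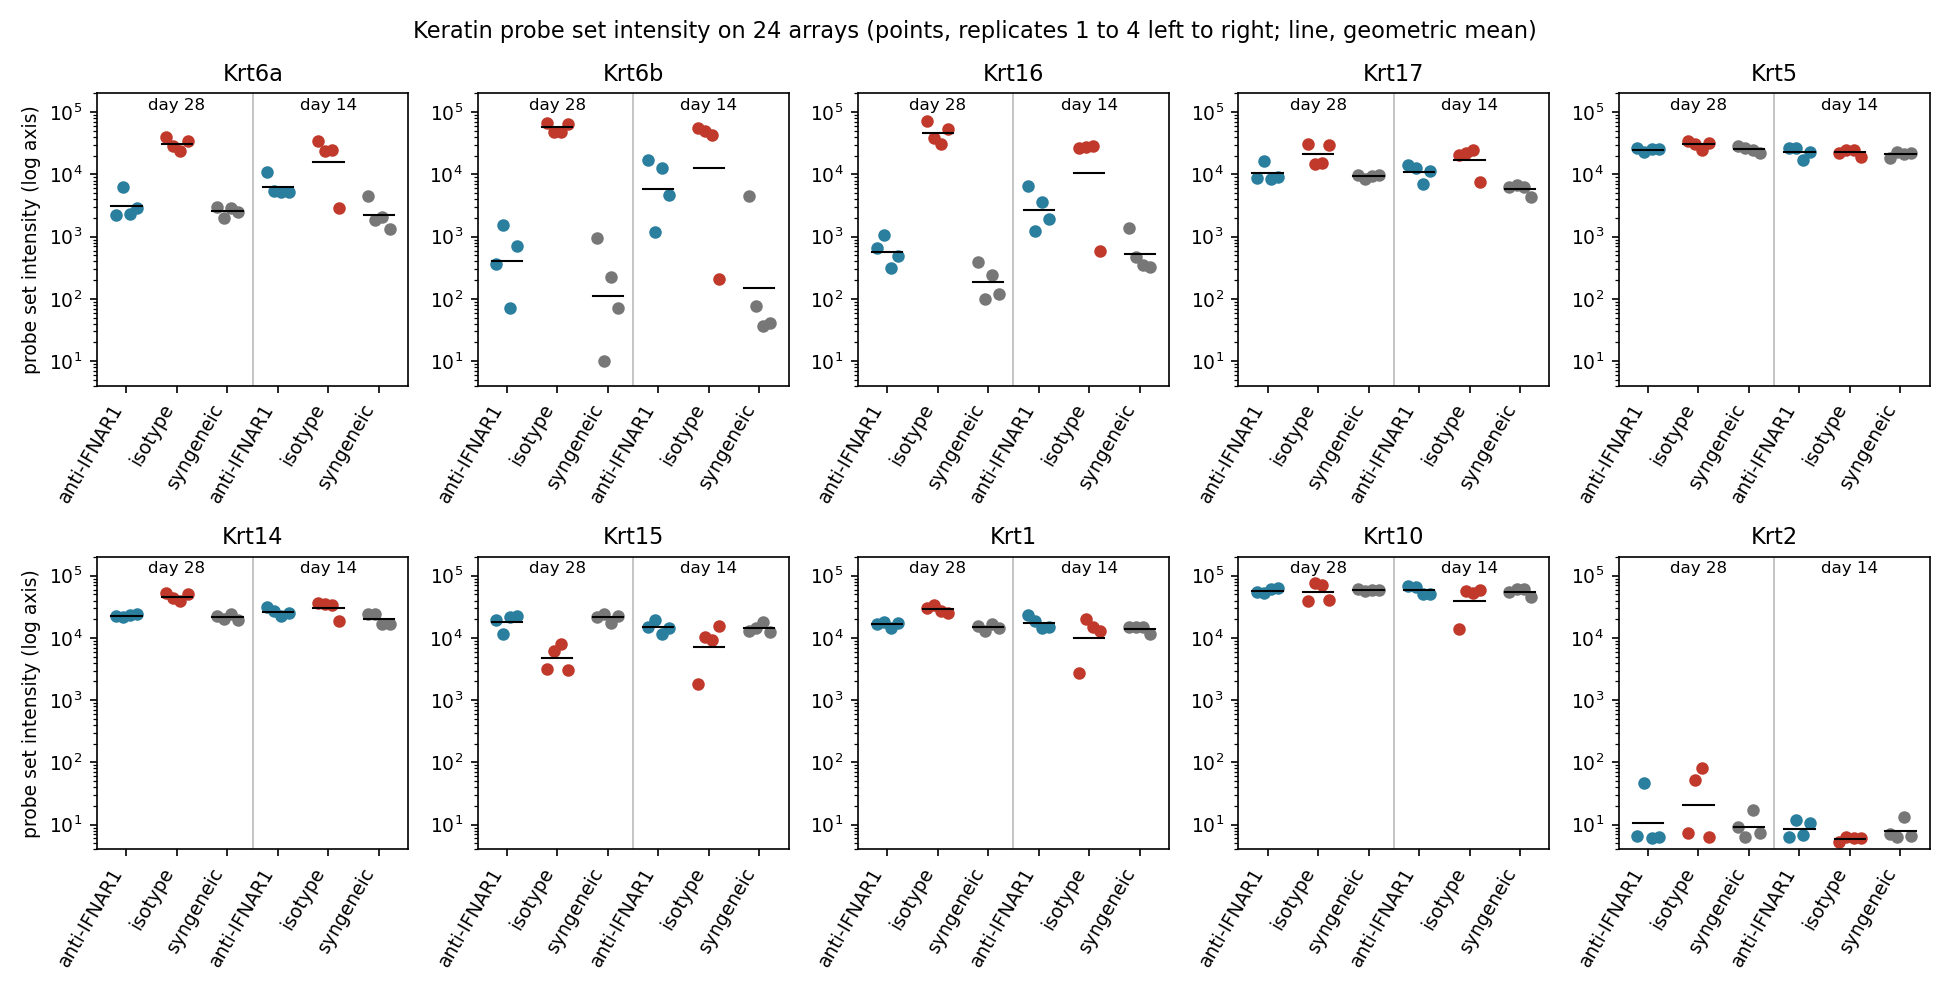
Intensity of the 10 keratins on the 24 arrays. Each panel is 1 keratin, the y axis is the probe set intensity on a log axis, points are the arrays in replicate order and lines are geometric means of the group. Krt6a, Krt6b and Krt16 are highest in isotype skin of day 28, where no isotype array overlaps the anti-IFNAR1 or syngeneic arrays, and 1 isotype array of day 14 reads low for all 4 stress keratins.

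Krt6a, a type II keratin of wound edges and the companion layer of the hair follicle, read 2269, 6381, 2307 and 2866 units in anti-IFNAR1 skin, 40199, 28171, 23474 and 34701 units in isotype skin, and 3043, 2002, 2882 and 2510 units in syngeneic skin at day 28. Every isotype array lay above every array of the other groups, and the anti-IFNAR1 and syngeneic ranges overlapped. The change was 3.58 ± 0.58 in isotype against syngeneic skin (adjusted p = 0.00033) and -3.30 ± 0.58 in anti-IFNAR1 against isotype skin (adjusted p = 0.0011).

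Krt6b, its close paralogue and chromosomal neighbour, read 367, 1518, 71 and 705 units in anti-IFNAR1 skin, 67585, 48696, 48995 and 65449 units in isotype skin, and 940, 10, 223 and 72 units in syngeneic skin. Here the isotype arrays were close together, while the other groups each spread over more than an order of magnitude. The change was 8.56 ± 1.69 for isotype minus syngeneic (adjusted p = 0.0016) and -7.03 ± 1.69 for anti-IFNAR1 minus isotype (adjusted p = 0.0088). The 2nd syngeneic array, on which Krt6b read 10 units, read 894 to 2002 units on the 3 probe sets of Krt6a.

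Krt16, the type I partner of the Krt6 chains, read 660, 1068, 320 and 492 units in anti-IFNAR1 skin, 71248, 38978, 31119 and 53841 units in isotype skin, and 397, 100, 243 and 119 units in syngeneic skin. The isotype arrays were far above both other groups. Its change of 7.84 ± 0.95 for isotype minus syngeneic, which is 229-fold, had the smallest adjusted p of the 10 keratins (2.7e-05). For anti-IFNAR1 minus isotype it fell by 6.29 ± 0.95 on the log2 scale, or 78.2-fold (adjusted p = 0.00036).

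Krt17, a type I stress keratin that is also made throughout the outer root sheath of the follicle, read 8883, 16735, 8613 and 9090 units in anti-IFNAR1 skin, 30393, 14941, 15052 and 29393 units in isotype skin, and 9641, 8459, 9513 and 9691 units in syngeneic skin. The isotype arrays were split, with replicates 1 and 4 far above replicates 2 and 3. It rose by 1.18 ± 0.34 in isotype against syngeneic skin (adjusted p = 0.021). The call ended without isotype replicate 1, without isotype replicate 4 or without syngeneic replicate 2, with changes of 1.01, 1.03 and 1.14 and adjusted p of 0.077, 0.08 and 0.053. It also ended without the arrays of high Gapdh ratio (adjusted p = 0.12) and without those of high hair follicle mean (adjusted p = 0.074). For anti-IFNAR1 minus isotype the difference of -1.03 ± 0.34 was not called (adjusted p = 0.053). The anti-IFNAR1 array that overlapped the isotype arrays, replicate 2, was also the array with the highest hair follicle mean of its group, 13.04. Without that array the difference was -1.26 (adjusted p = 0.02), and with the hair follicle mean as a covariate it was -1.18 (adjusted p = 0.02). Alternatives that kept the array and left hair content aside also gave a call. These were an offset of 1 (adjusted p = 0.049), a trended robust prior (0.047), removal of the dimmest genes (0.035) and array weights (0.0066). So did leaving out isotype replicate 2 (0.037) or 3 (0.038), while other alternatives gave none. The difference lay near the threshold, and the part of hair follicle RNA in it was not tested.

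Among the basal keratins, Krt5, the type II chain of the basal pair, read 26735, 22767, 25664 and 25298 units in anti-IFNAR1 skin, 34580, 30994, 25035 and 32064 units in isotype skin, and 28590, 26660, 24749 and 22421 units in syngeneic skin. The ranges overlapped in both comparisons and neither difference was called, 0.26 ± 0.13 for isotype minus syngeneic (adjusted p = 0.21) and -0.28 ± 0.13 for anti-IFNAR1 minus isotype (adjusted p = 0.17).

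Krt14, the type I chain that pairs with Krt5, read 22822, 21608, 23122 and 24193 units in anti-IFNAR1 skin, 52611, 43295, 38982 and 50565 units in isotype skin, and 22910, 20457, 24166 and 19229 units in syngeneic skin. The isotype arrays did not overlap those of either other group. The change was 1.09 ± 0.18 for isotype minus syngeneic (adjusted p = 0.00041) and -1.01 ± 0.18 for anti-IFNAR1 minus isotype (adjusted p = 0.0013). The 2 chains of the basal pair therefore differed in their calls at day 28, though the difference between their changes was not tested.

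Krt15, the basal keratin that is also known from the follicle bulge, went the other way. It read 19312, 11421, 22071 and 22331 units in anti-IFNAR1 skin, 3197, 6062, 8127 and 3074 units in isotype skin, and 21690, 24664, 17328 and 22789 units in syngeneic skin. All isotype arrays were below all arrays of the other groups, and the lowest anti-IFNAR1 array was again replicate 2, the one with the most hair follicle RNA. The change was -2.19 ± 0.47 for isotype minus syngeneic (adjusted p = 0.003) and 1.95 ± 0.47 for anti-IFNAR1 minus isotype, 3.86-fold higher (adjusted p = 0.0085). This second call ended without the arrays of high Gapdh ratio (adjusted p = 0.06).

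Of the suprabasal keratins, Krt1, the type II chain of the suprabasal pair, read 16471, 18244, 14557 and 17256 units in anti-IFNAR1 skin, 29796, 33672, 27150 and 25325 units in isotype skin, and 15395, 13091, 16579 and 14547 units in syngeneic skin. Although the isotype arrays overlapped neither other group, the difference was not called against syngeneic skin (0.96 ± 0.39, adjusted p = 0.11) nor for anti-IFNAR1 against isotype skin (-0.80 ± 0.39, adjusted p = 0.21). These fits take 1 spread from all 6 groups, and the isotype arrays of day 14 were widely spread for Krt1. With only the arrays compared in the fit both were called, with adjusted p = 0.0038 and 0.011. A two-sided exact permutation test of 4 against 4 arrays gave p = 0.0286 for each, the smallest it can give.

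Krt10, the type I partner of Krt1, read 55359, 52282, 60768 and 62791 units in anti-IFNAR1 skin, 38799, 75057, 71948 and 41338 units in isotype skin, and 61473, 57476, 59666 and 59434 units in syngeneic skin. The isotype arrays lay on both sides of the other groups, and the differences of -0.13 ± 0.33 for isotype minus syngeneic and 0.09 for anti-IFNAR1 minus isotype were not called. Krt2 read 6 to 47 units in anti-IFNAR1 skin, 6 to 81 units in isotype skin and 6 to 17 units in syngeneic skin of day 28, and was not called in these comparisons or any other. With array weights it was called for isotype minus syngeneic (1.25, adjusted p = 0.00094) and anti-IFNAR1 minus isotype (-1.31, adjusted p = 0.0014) at day 28. Most Krt2 values lay near or below the array medians, and the series holds no detection calls.

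**Figure D2:**
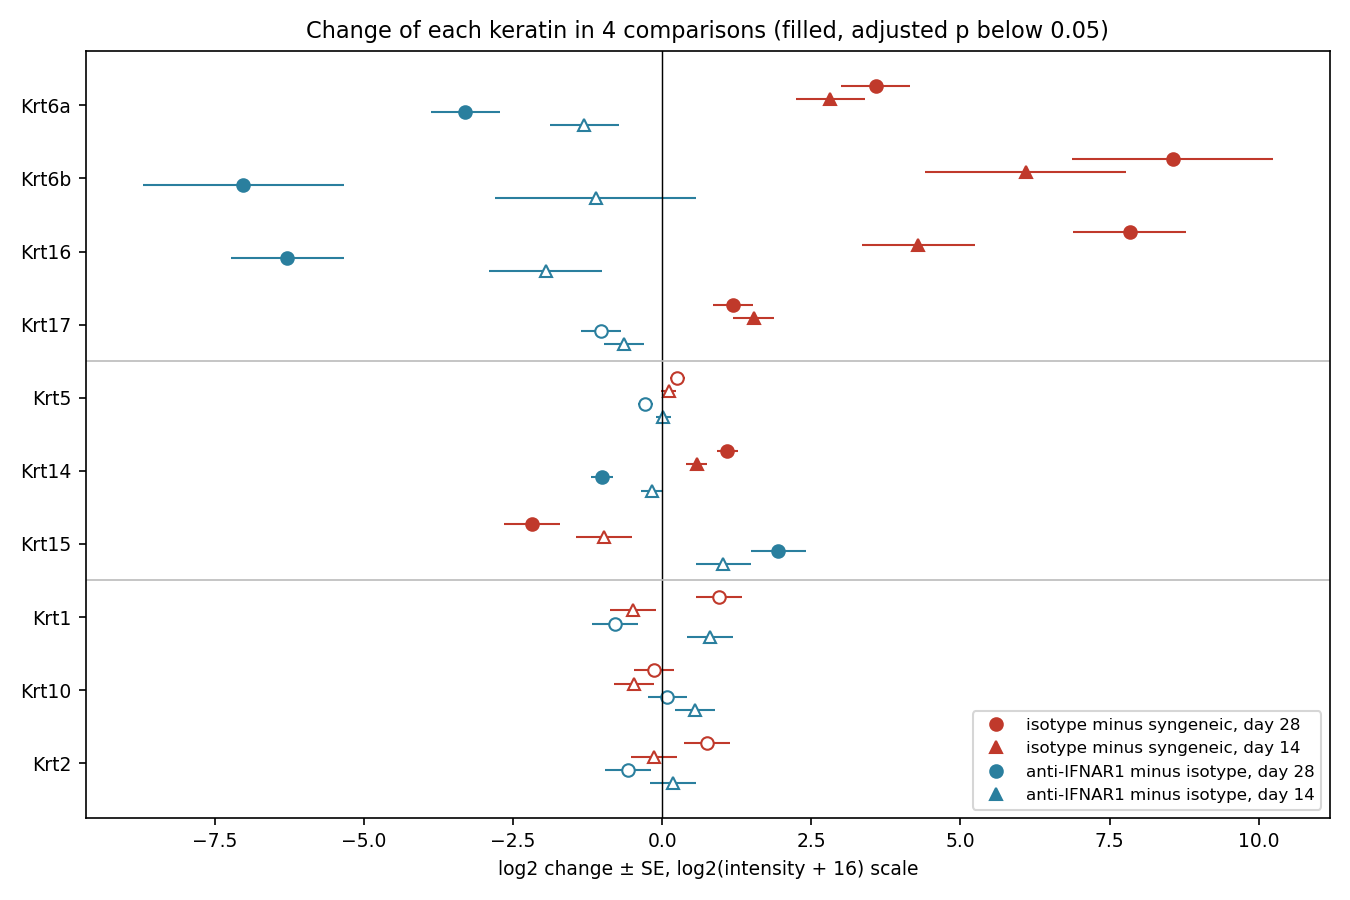
Change of the 10 keratins in 4 comparisons. The x axis is the log2 change on the log2(intensity + 16) scale with its standard error from limma, circles are day 28, triangles are day 14, and filled symbols have an adjusted p below 0.05. Krt6a, Krt6b, Krt16 and Krt14 lie right of 0 for isotype minus syngeneic and left of it for anti-IFNAR1 minus isotype at day 28, and Krt15 lies on the opposite sides.

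Anti-IFNAR1 skin therefore had lower Krt6a, Krt6b, Krt16 and Krt14 and higher Krt15 than isotype skin at day 28, 5 of 10 keratins called. Of all genes 13.3% were called in that comparison, 8.42% higher and 4.89% lower. The median log2 change of the 4 stress keratins was 5.71 for isotype minus syngeneic and -4.79 for anti-IFNAR1 minus isotype, while the medians of all genes were -0.00089 and -0.00075. Both comparisons use the same 4 isotype arrays, so an array that reads high or low moves both, in opposite directions. The isotype groups did not overlap the syngeneic groups for 7 of the 10 keratins, against 20.2% of all genes, nor the anti-IFNAR1 groups for 6 of 10, against 17.2% of all genes.

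In anti-IFNAR1 against syngeneic skin at day 28, limma called 0 of the 10 keratins, and 0 had an unadjusted p below 0.05, against 2.03% of all genes. Of all genes 0.033% were called, none of them lower. Krt6b had a difference of 1.53 ± 1.69 and Krt16 one of 1.55 ± 0.95, and the other 8 keratins had differences between -0.24 and 0.28. For Krt16, 3 of the 4 anti-IFNAR1 arrays exceeded 397 units, the highest syngeneic value, and the exact permutation test gave p = 0.0571. The standard error of the Krt6b difference was as large as the difference itself.

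The isotype arrays of day 28 differed among themselves. Replicates 1 and 4 lay apart from replicates 2 and 3 in 9 of the 10 keratins. The pair was higher in Krt6a, Krt6b, Krt16, Krt17, Krt5 and Krt14 and lower in Krt15, Krt10 and Krt2, and Krt1 showed no such order. The same pair had Gapdh log2 3'/5' ratios of 4.57 and 2.69, against 1.69 and 1.07 for replicates 2 and 3. Their means over 11 keratinocyte activation genes were 12.17 and 12.66, against 11.21 and 11.73, and over 5 adipocyte genes 9.14 and 9.16, against 9.65 and 10.14, all on the log2(intensity + 16) scale. These values move together within 1 group, and their part in the keratin levels was not tested.

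Other kinds of RNA also moved with the groups at day 28. Of all genes 6.66% were called higher and 9.69% lower in isotype than in syngeneic skin. In anti-IFNAR1 against isotype skin 8.42% were called higher and 4.89% lower. Of 6 T cell genes, 5 were higher in isotype than in syngeneic skin and 5 were lower in anti-IFNAR1 than in isotype skin. Their mean was 6.90 to 7.46 in anti-IFNAR1 skin, 8.51 to 8.76 in isotype skin and 5.89 to 6.32 in syngeneic skin on the log2(intensity + 16) scale. Of 7 macrophage genes 5 were higher in isotype than in syngeneic skin and 3 were lower in anti-IFNAR1 than in isotype skin, with medians of 1.59 and -1.01. Of 4 sebaceous gland genes 2 were lower in isotype than in syngeneic skin and 2 were higher in anti-IFNAR1 than in isotype skin, with list means of 9.24 to 9.88 in anti-IFNAR1 skin, 6.93 to 8.05 in isotype skin and 9.12 to 9.68 in syngeneic skin. All 5 adipocyte genes and 4 of 6 skeletal muscle genes were lower in isotype than in syngeneic skin, and the same numbers were higher in anti-IFNAR1 than in isotype skin. Of 22 hair follicle genes 2 were called lower in isotype than in syngeneic skin, near the share of all genes, with a median change of -3.60. Of the 22, however, 15 had an unadjusted p below 0.05 there, against 27% of all genes. In anti-IFNAR1 against isotype skin 0 of the 22 were called by limma, with a median of 1.66. There 0 had an unadjusted p below 0.05, against 24.9% of all genes. Of 8 epidermal keratinocyte markers 3 were higher in isotype than in syngeneic skin and 2 were lower in anti-IFNAR1 than in isotype skin, with medians of 0.01 and -0.11. The part of these tissue contents in the keratin changes was not tested.

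Both other Krt6a probe sets were higher in isotype than in syngeneic skin at day 28, by 4.67 and 4.41, and lower in anti-IFNAR1 than in isotype skin, with changes of -4.28 and -4.11, all called. For Krt14 the other 2 probe sets had called changes of 1.52 and 1.64 against syngeneic skin and of -1.32 and -1.84 for anti-IFNAR1 minus isotype. The dimmer probe set of Krt17 had changes of 1.01 and -0.90 in these comparisons, neither of them called. Krt6a and Krt6b are near-identical in sequence, as are parts of Krt14, Krt16 and Krt17, so the signal of one may hold RNA of another.

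**Figure D3:**
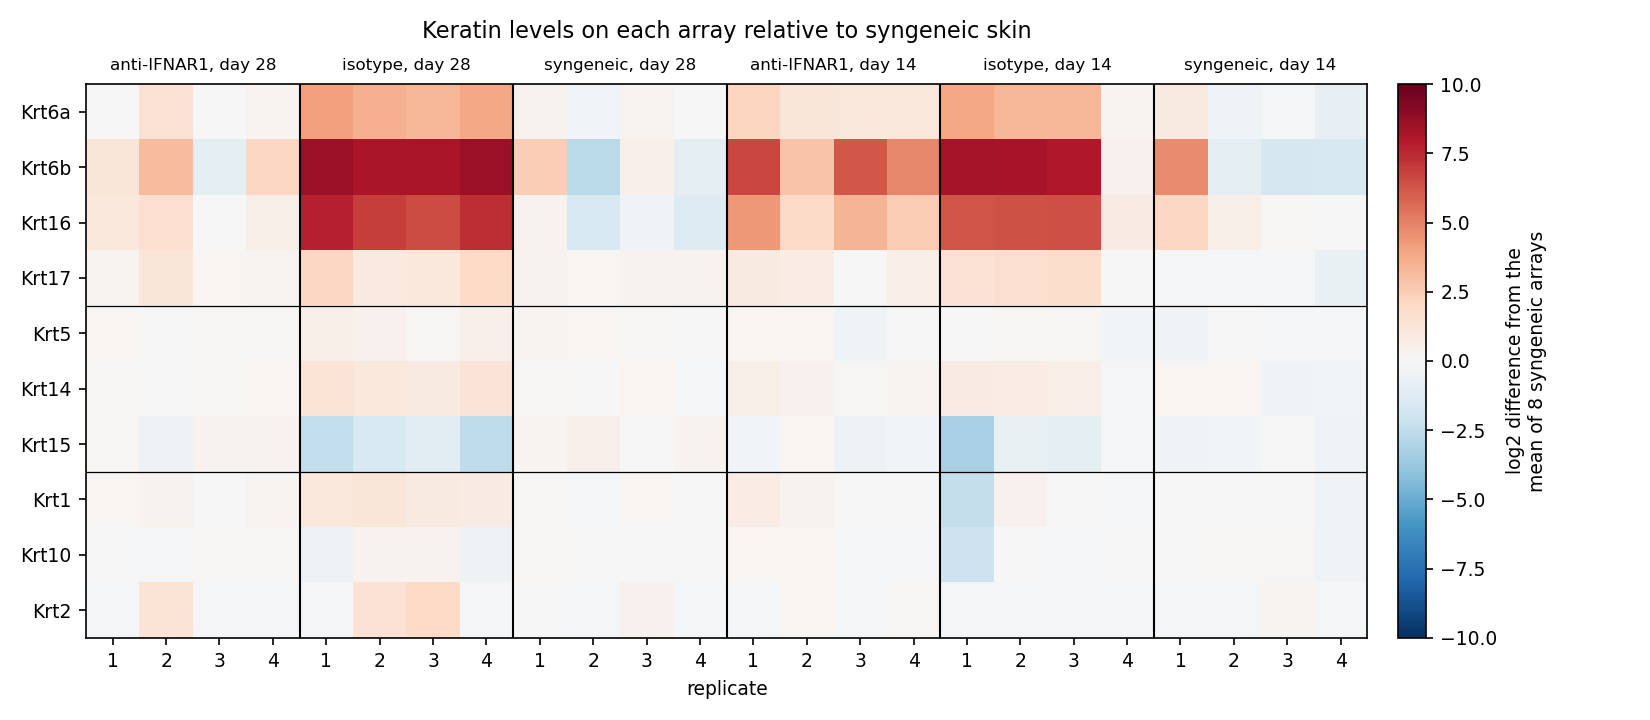
Level of each keratin on each array. Colour is the log2 difference from the mean of the 8 syngeneic arrays on the log2(intensity + 16) scale, columns are the replicates of each group and rows are stress, basal and suprabasal keratins. Isotype columns of day 28 are red for the 4 stress keratins and blue for Krt15, and the 4th isotype column of day 14 is close to the syngeneic columns.

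The keratin changes stood beside changes in other keratinocyte genes. The 7 pathway lists were chosen with earlier results of these data known, so their order is a description only. The largest median change among them was in a list of keratinocyte activation genes. These are small proline-rich cornified envelope proteins, S100 proteins, stefins and antimicrobial proteins that inflamed epidermis makes. Of the 11 measured members of this list 9 were higher in isotype than in syngeneic skin at day 28, against 6.66% of all genes. In anti-IFNAR1 against isotype skin 8 were lower, against 4.89% of all genes. The median changes were 5.56 and -5.14. Sprr2d, an envelope precursor, had changes of 7.75 ± 1.04 (adjusted p = 7.5e-05) and -7.58 ± 1.04 (adjusted p = 0.00018). Sprr1b, another such precursor, had changes of 8.41 ± 1.35 (adjusted p = 0.00033) and -7.14 ± 1.35 (adjusted p = 0.0019), and Stfa3, a cysteine protease inhibitor, of 7.76 ± 1.0 (adjusted p = 5.5e-05) and -5.08 ± 1.0 (adjusted p = 0.0024). S100a9, a subunit of calprotectin, rose by 6.63 ± 1.06 in isotype against syngeneic skin (adjusted p = 0.0003) and fell by 6.47 ± 1.06 on the log2 scale in anti-IFNAR1 against isotype skin (adjusted p = 0.00068). S100a8, S100a9, Lcn2 and stefins are also made by neutrophils, and what share came from such cells was not tested.

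Ligands of the epidermal growth factor receptor, which drive keratinocyte migration and are known to induce Krt6 and Krt16 in cultured cells, moved in both directions. Of 9 measured ligands and receptors, 3 were higher and 3 lower in isotype than in syngeneic skin at day 28, with a median of -0.15. In anti-IFNAR1 against isotype skin 2 were higher and 3 lower, with a median of 0.02. The shares of all genes called in the first comparison were 6.66% higher and 9.69% lower. Those in the second were 8.42% higher and 4.89% lower. Hbegf, a membrane-anchored ligand shed at wounds, read 29, 48, 32 and 35 units in anti-IFNAR1 skin, 677, 129, 324 and 1094 units in isotype skin, and 29 units on each of the 4 syngeneic arrays. Every isotype array was above both other groups. The highest were replicates 4 and 1, which also had the highest Krt6b and Krt16, though neither keratin had the 4 arrays in the same order. These replicates also differed from replicates 2 and 3 in the Gapdh ratio and in other keratins, and a link between Hbegf and the keratins was not tested. The Hbegf change was 3.29 ± 0.56 for isotype minus syngeneic (adjusted p = 0.0005) and -3.10 ± 0.56 for anti-IFNAR1 minus isotype (adjusted p = 0.0013). Epgn, the ligand epigen, had changes of 2.70 ± 0.69 (adjusted p = 0.011) and -2.65 ± 0.69 (adjusted p = 0.015) in these comparisons, and Ereg, epiregulin, of 2.22 ± 0.36 (adjusted p = 0.00036) and -2.07 ± 0.36 (adjusted p = 0.0011). Btc, betacellulin, went the opposite way to these ligands in isotype against syngeneic skin, at -2.69 ± 0.72 (adjusted p = 0.014). The other 2 called members were Egf and its receptor Egfr, both lower in isotype than in syngeneic skin and higher in anti-IFNAR1 than in isotype skin.

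The share of genes of the basal cell's anchorage called lower in isotype than in syngeneic skin was near that of all genes, 9.69%. Of 10 measured genes of hemidesmosomes, the basement membrane laminin and basal identity 1 was lower in isotype than in syngeneic skin at day 28, Dst, which encodes the hemidesmosome plakin BPAG1 (-1.18 ± 0.36, adjusted p = 0.031). None of the 10 was called by limma in anti-IFNAR1 against isotype skin, where 13.3% of all genes were called. Of the 10, 4 had an unadjusted p below 0.05 there, against 24.9% of all genes. Of 9 cell cycle genes 0 were called by limma in either comparison, with 3 and 7 at an unadjusted p below 0.05, against 27% and 24.9% of all genes, and medians of 0.92 and -1.11.

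Suprabasal cells also make envelope and barrier proteins other than keratins. Of 12 measured, 5 were higher in isotype than in syngeneic skin at day 28 and 4 were lower in anti-IFNAR1 than in isotype skin, with medians of 0.70 and -0.64. Of all genes 6.66% were called higher and 9.69% lower in the first comparison, and 8.42% higher and 4.89% lower in the second. Tgm3 and Tgm1, transglutaminases that cross-link the cornified envelope, had changes of 3.5 ± 0.81 (adjusted p = 0.0054) and 1.96 ± 0.36 (adjusted p = 0.00089) for isotype minus syngeneic. In anti-IFNAR1 against isotype skin Tgm3 fell by 3.29 ± 0.81 (adjusted p = 0.01) and Tgm1 by 1.88 ± 0.36 (adjusted p = 0.0019) on the log2 scale. Casp14, a protease that acts in cornification, had changes of 3.04 ± 0.59 (adjusted p = 0.0015) and -2.91 ± 0.59 (adjusted p = 0.003). Flg, filaggrin, which bundles Krt1 and Krt10 filaments, was higher in isotype than in syngeneic skin by 2.08 ± 0.63 (adjusted p = 0.028), and its difference of -1.64 ± 0.63 in anti-IFNAR1 against isotype skin was not called (adjusted p = 0.096). The 10 desmosome and plakin genes, to which keratin filaments attach, had medians of 0.10 and -0.17 in these comparisons. Among 10 genes a single call is near the shares of all genes. Of the 10, 2 were higher and 1 was lower in isotype than in syngeneic skin. In anti-IFNAR1 against isotype skin 1 was higher and 2 were lower. Jup, plakoglobin, and Pkp1, plakophilin 1, were the 2 higher in isotype than in syngeneic skin. Their changes were 0.94 ± 0.23 (adjusted p = 0.0077) and 0.44 ± 0.12 (adjusted p = 0.012), and both were lower in anti-IFNAR1 than in isotype skin. Pkp2, plakophilin 2, went the opposite way, with changes of -2.13 ± 0.31 (adjusted p = 0.00016) and 2.37 ± 0.31 (adjusted p = 0.00012).

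At day 14 isotype skin already had higher stress keratins than syngeneic skin. On isotype replicate 4 Krt6a, Krt6b and Krt16 lay within the syngeneic ranges, while Krt17 lay above its range. Krt6a, Krt6b, Krt16, Krt17 and Krt14 were called higher, 7.05-fold, 68.2-fold, 19.6-fold, 2.89-fold and 1.49-fold, and no keratin was called lower. Of all genes 13.6% were called in this comparison, 5.29% higher and 8.3% lower. Only Krt17 had groups that did not overlap, against 13.3% of all genes. With only these 8 arrays in the fit, 0 of the 10 keratins and 83 genes in all were called by limma, with 3572 genes at an unadjusted p below 0.05. The calls of day 14 thus depend on fitting all 6 groups together. That fit differs in its spread and its degrees of freedom, and which of these mattered was not tested. In the same comparison 5 of 6 T cell genes and 6 of 7 macrophage genes were higher in isotype skin, with medians of 2.58 and 2.15, and the part of such cells in the keratin changes was not tested.

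Krt6a at day 14 read 10779, 5504, 5213 and 5148 units in anti-IFNAR1 skin, 34685, 24139, 24405 and 2925 units in isotype skin, and 4572, 1883, 2095 and 1312 units in syngeneic skin. The first 3 isotype arrays were above all others of that day and the 4th lay within the syngeneic range. The change for isotype minus syngeneic was 2.82 ± 0.58 (adjusted p = 0.0045), and 3.62 ± 0.39 without the 4th isotype array (adjusted p = 3.2e-05).

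For Krt6b the values at day 14 were 17218, 1193, 12809 and 4613 units in anti-IFNAR1 skin, 55101, 50418, 43286 and 212 units in isotype skin, and 4533, 77, 37 and 41 units in syngeneic skin. Syngeneic replicate 1 was far above the other 3 of its group, and isotype replicate 4 far below the other 3 of its own. The change of 6.09 ± 1.69 (adjusted p = 0.022) became 8.03 ± 1.42 without isotype replicate 4. The call ended without isotype replicate 1, 2 or 3, or without syngeneic replicate 3 or 4, where the change lay between 5.39 and 5.51 and adjusted p between 0.066 and 0.078. Krt16 at day 14 read 6561, 1246, 3548 and 1894 units in anti-IFNAR1 skin, 26462, 27928, 28979 and 580 units in isotype skin, and 1402, 477, 346 and 324 units in syngeneic skin. Its isotype arrays divided in the same way, 3 high and replicate 4 low. The change was 4.30 ± 0.95 (adjusted p = 0.0069), and 5.68 ± 0.59 without isotype replicate 4. Without the arrays of high Gapdh ratio neither Krt16 (adjusted p = 0.051) nor Krt6b (adjusted p = 0.12) was called.

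Krt17 at day 14 read 14003, 12598, 7066 and 11470 units in anti-IFNAR1 skin, 20670, 22023, 24683 and 7536 units in isotype skin, and 6402, 6699, 6347 and 4400 units in syngeneic skin. Both GVH-SSc groups lay above every syngeneic array. The isotype change was 1.53 ± 0.34 (adjusted p = 0.0071), and 1.93 ± 0.29 without isotype replicate 4. Read from the dimmer probe set of Krt17 it was 0.48 and not called (adjusted p = 0.51). Krt14 read 31333, 27352, 22464 and 25626 units in anti-IFNAR1 skin, 37108, 34684, 33420 and 18806 units in isotype skin, and 24237, 24032, 16717 and 16782 units in syngeneic skin. Its change was 0.58 ± 0.18 (adjusted p = 0.04), and 0.80 ± 0.14 without isotype replicate 4 (adjusted p = 0.0012). Quantile normalization (adjusted p = 0.055), centring of array medians (adjusted p = 0.05) and the mean of its probe sets (adjusted p = 0.069) each ended the call, as did 9 of the other alternatives, among them the removal of isotype replicate 1, 2 or 3 or syngeneic replicate 3 or 4.

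The other 5 keratins were not called in isotype against syngeneic skin at day 14. Krt15 read 14844, 19589, 11524 and 14396 units in anti-IFNAR1 skin, 1848, 10232, 9339 and 15808 units in isotype skin, and 13156, 14367, 17819 and 12682 units in syngeneic skin. It was lowest on isotype replicate 1 and lay within the syngeneic range on replicate 4, with a difference of -0.98 ± 0.47 (adjusted p = 0.18), or -1.35 without replicate 4 (adjusted p = 0.051). Isotype replicate 1 was also low for Krt1, at 2745 units against 12735 to 19914 on the other 3 isotype arrays, and for Krt10, at 13996 against 53694 to 58689 units. On that array stress keratins were as high as on replicates 2 and 3. Krt5 differed by 0.11 ± 0.13 between isotype and syngeneic skin.

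**Figure D4:**
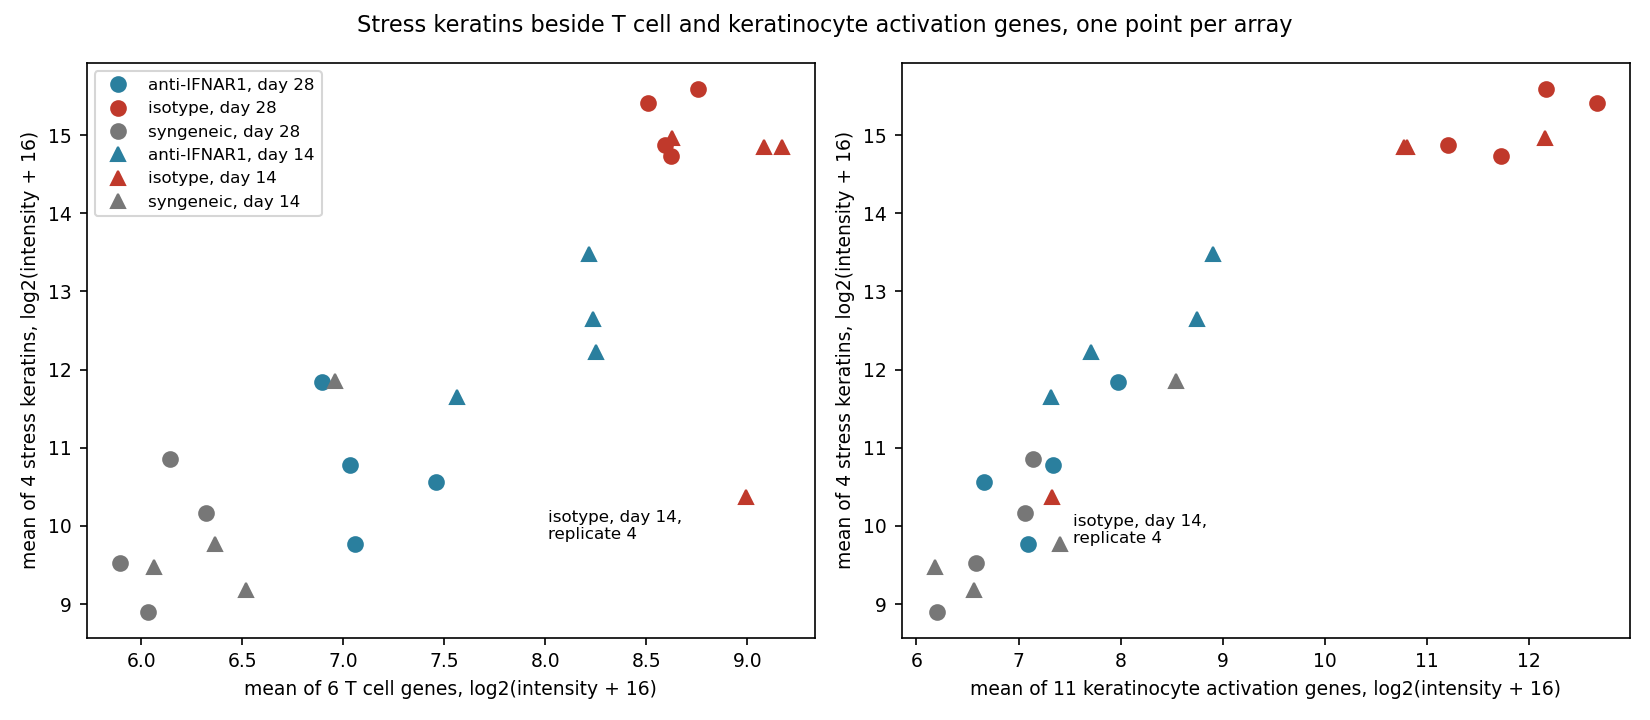
Mean of the 4 stress keratins on each array (y axis) beside the mean of 6 T cell genes (left, x axis) and of 11 keratinocyte activation genes (right, x axis), all on the log2(intensity + 16) scale. Circles are day 28, triangles day 14, and each point is an array. Isotype replicate 4 of day 14 has a T cell mean of 9.0, within the range of its group, and a keratinocyte activation mean of 7.33, against 10.78 to 12.16 on the other 3.

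In anti-IFNAR1 against isotype skin at day 14 limma called 0 of the 10 keratins with all arrays, and 2 had an unadjusted p below 0.05, against 16.9% of all genes. Of all genes 0.813% were called, 0.159% higher and 0.654% lower. The stress keratins had differences of -1.31 ± 0.58 for Krt6a, -1.12 ± 1.69 for Krt6b, -1.96 ± 0.95 for Krt16 and -0.64 ± 0.34 for Krt17. The log2 Gapdh 3'/5' ratio also differed between these groups, at 2.13 to 4.78 in anti-IFNAR1 skin and 0.62 to 2.16 in isotype skin, as did 2 of 6 T cell genes and 1 of 7 macrophage genes, which were lower in anti-IFNAR1 skin. Their part in these differences was not tested. Without isotype replicate 4 Krt6a fell by 2.11 ± 0.39 on the log2 scale (adjusted p = 0.0089) and Krt16 by 3.34 ± 0.59 (adjusted p = 0.0062), while Krt6b with -3.06 ± 1.42 (adjusted p = 0.25) and Krt17 with -1.03 ± 0.29 (adjusted p = 0.055) were not called. In all 625 genes were called. The outcome for these 2 keratins at day 14 thus rests on that array. Since its low stress keratins were what set it apart, the fits without it do not establish a fall at day 14.

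For anti-IFNAR1 against syngeneic skin at day 14, limma called 0 of the 10 keratins and 1.12% of all genes, 0.341% higher and 0.781% lower. An unadjusted p below 0.05 was found for 5 of the 10 and 14.3% of all genes. Krt6a, with 1.51 ± 0.58 (adjusted p = 0.22), and Krt17, with 0.89 ± 0.34 (adjusted p = 0.22), had groups that did not overlap, against 7.49% of all genes. Krt6b had a difference of 4.97 ± 1.69 (adjusted p = 0.16) and Krt16 one of 2.34 ± 0.95 (adjusted p = 0.25). The median difference over the 4 stress keratins was 0.90 at day 28 and 1.93 at day 14.

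The keratinocyte activation list at day 14 followed the same arrays. Of its 11 members 7 were higher in isotype than in syngeneic skin with all arrays and 9 without isotype replicate 4, with medians of 3.24 and 4.26. With all arrays 5.29% of all genes were called higher there. In anti-IFNAR1 against isotype skin 0 were called by limma with all arrays and 7 were lower without that array, with medians of -1.90 and -3.18. With all arrays 0.654% of all genes were called lower there. An unadjusted p below 0.05 was found for 6 of the 11, against 16.9% of all genes. Without the array 625 genes were called in all. It was singled out by its low stress keratins and was also low in this list, so counts without it are a description only. Epgn was called lower in anti-IFNAR1 than in isotype skin at day 14 with all arrays, at -3.23. Of the suprabasal differentiation genes 1 of 12 was lower and 0 were higher in isotype than in syngeneic skin at day 14. Of all genes 8.3% were called lower and 5.29% higher, so this count is near the background. Tgm3, Tgm1 and Flg had uncalled differences of 1.11 ± 0.81, 0.52 ± 0.36 and 1.5 ± 0.63.

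Between the days, Krt1 was the keratin called in isotype skin, higher at day 28 than at day 14 by 1.51 ± 0.39 (adjusted p = 0.047). The call ended in 10 of 21 alternatives, among them the fit without the 4th isotype array of day 14 (1.62, adjusted p = 0.074) and the fits without any 1 of the 4 isotype arrays of day 28. In this comparison 5 keratins had an unadjusted p below 0.05, against 14.7% of all genes. Of all genes 2.2% were called, 1.15% higher and 1.05% lower. Krt16 differed by 2.13 ± 0.95 (adjusted p = 0.3), Krt14 by 0.62 ± 0.18 (adjusted p = 0.082) and Krt5 by 0.42 ± 0.13 (adjusted p = 0.093). Without the 4th isotype array of day 14 the Krt16 difference was 0.74 (adjusted p = 0.71), that of Krt14 0.39 (adjusted p = 0.21) and that of Krt5 0.35 (adjusted p = 0.24). In anti-IFNAR1 skin limma called 0 of the 10 keratins between days and 0.555% of all genes, 0.17% higher and 0.385% lower. There 2 keratins and 13% of all genes had an unadjusted p below 0.05. The largest differences there were -3.76 ± 1.69 for Krt6b and -2.21 ± 0.95 for Krt16. Syngeneic skin had 0 keratins called between days by limma, and 0.077% of all genes, with 1 keratin and 9.08% of all genes at an unadjusted p below 0.05.

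Whether the contrasts between groups differed between days was tested with interaction terms. For isotype minus syngeneic, limma called 0 of 10 keratins and 0.044% of all genes, with 2 keratins and 9.76% of all genes at an unadjusted p below 0.05. For anti-IFNAR1 minus isotype it called 0 of 10 and 0.0715% of all genes, with 5 keratins and 13.6% of all genes at an unadjusted p below 0.05. Krt16 had the interaction values 3.55 ± 1.34 (adjusted p = 0.39) and -4.33 ± 1.34 (adjusted p = 0.16), and Krt6b had -5.91 ± 2.39 (adjusted p = 0.28) in the second. Without the 4th isotype array of day 14 these were 2.16 ± 0.80 (adjusted p = 0.4) and -2.95 ± 0.80 (adjusted p = 0.2) for Krt16 and -3.97 ± 1.94 (adjusted p = 0.49) for Krt6b. A larger effect of anti-IFNAR1 on these keratins at day 28 than at day 14 was therefore not shown.

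Single keratins were also compared with exact permutation tests, 90 in all. Of these exact tests 22 gave p = 0.0286, the smallest possible with 4 against 4 arrays, and the smallest value after Benjamini-Hochberg adjustment over the 90 was 0.117.

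The genes whose levels were most like each class were looked up across the 24 arrays by Pearson's r, as a description. The arrays share their groups, so a high r may reflect the group differences alone. The mean of the stress keratins was most like Klk6, a kallikrein protease of upper epidermis, with r = 0.97, Sprr1b and Stfa3 with 0.96 each, 2610528A11Rik with 0.95 and Urah with 0.94. The median of Klk6 at day 28 was 82 units in anti-IFNAR1 skin, 5891 in isotype skin and 76 in syngeneic skin. The mean of the basal keratins was most like Acsbg1, with r = 0.86, and Cd109, Anxa8, Susd2 and Pgrmc2, with 0.85 each. Within this class Krt15 had r = -0.78 with Krt14 and -0.29 with Krt5, so the mean does not stand for each basal keratin. At day 28 each of these genes had its lowest median in isotype skin, as Krt15 did, while Krt14 was highest there. The mean of the suprabasal keratins was most like Calml3, a calmodulin-like protein of differentiating epithelia, with r = 0.91, then Lancl1 with 0.89, Dexi with 0.86, and Gramd1c and Them5 with 0.85. At day 28 the median of Calml3 was 3479 units in anti-IFNAR1 skin, 5967 in isotype skin and 3567 in syngeneic skin.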

How the data were processed

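Biotin-labelled cRNA of skin total RNA was hybridised to Affymetrix arrays, per the labels. The deposited values are linear intensities of probe sets, from 1.68 to 92640.3. The authors' summary, background correction and normalization of them are not given in the sources used here, and no batch or scan date was used. Of 45101 probe sets, 64 were controls, 34945 had 1 gene symbol, 932 had several and 9160 had none in the platform annotation. Of those with 1 symbol, 34741 were matched by gene identifier and given the current symbol, whether or not it differed. A gene was read from the probe set brightest on average, giving 18193 genes. Of the 16 keratin probe sets found, 1 carried both Krt14 and Krt17 and was left out.

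Group means were fitted to log2(intensity + 16) of all 24 arrays with limma 3.58.1 in R 4.3.3, without further normalization. Residual and prior degrees of freedom were 18 and 0.71. Tests were two-sided, with Benjamini-Hochberg adjustment across the 18193 genes and a threshold of 0.05. Comparisons were between the 3 treatments at each day, between days, and the differences of these. Scripts were tested on simulated data. No 2 arrays were identical.

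The 10 keratins and the 15 gene lists, with 155 members of which 141 were measured, were chosen with earlier results of these data known. Genes named were all 10 keratins, the 4 members of each pathway list with the largest called change in isotype against syngeneic skin at day 28, and the 5 genes most like each class. Egf, Egfr and Krt4 were named after their values were seen. Numbers of arrays limit the precision. Alternatives were quantile normalization, median centring, an offset of 1, removal of the dimmest 25% of genes, the mean of all probe sets, a trended robust prior, fits limited to the arrays compared, a replicate block, array weights, the Gapdh ratio or hair follicle mean as a covariate or as a reason to leave arrays out, and leaving out each array. The list counts without 1 day 14 isotype array were added after seeing the data. That array was singled out by its low stress keratins.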

Additional observations from a re-analysis of the deposited data

Results flagged for a closer look

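In each group of 4 arrays the gap between the highest or lowest array and its neighbour was divided by the range of the group and set against Dixon's 95% critical value. Of 60 groups of keratin values 14 passed it, where chance gives about 1 in 20 for each group. The 60 are not independent, since the keratins share arrays and several flags fell on the same array. The count therefore does not measure an excess over chance.

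In isotype skin of day 14, replicate 4 was the low array for Krt6a (0.853), Krt6b (0.956), Krt16 (0.977), Krt17 (0.85) and Krt14 (0.846), and replicate 1 was the low array for Krt10 (0.938). In anti-IFNAR1 skin of day 14, replicate 1 was high for Krt6a (0.909). In syngeneic skin of day 14, replicate 1 was high for Krt6b (0.873), replicate 4 was low for Krt17 (0.872) and Krt1 (0.943), and replicate 3 was high for Krt2 (0.881), at 13 units. In day 28 skin, anti-IFNAR1 replicate 2 was high for Krt17 (0.919) and for Krt2 (0.985), at 47 units, and syngeneic replicate 2 was low for Krt17 (0.863). The anti-IFNAR1 array was the one with the highest hair follicle mean of its group, 13.04 on the log2(intensity + 16) scale, and the syngeneic replicate 4 of day 14 had the highest Gapdh log2 3'/5' ratio of all arrays, 6.27. The part of either in these values was not tested.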

How the results depend on the processing

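For isotype minus syngeneic at day 28, anti-IFNAR1 minus isotype at day 28 and anti-IFNAR1 minus syngeneic at day 28, the number of keratins called stayed within 1.5 times of 6, 5 and 0 under all alternatives except array weights, which gave 8 for anti-IFNAR1 minus isotype. Array weights also gave 2 for anti-IFNAR1 minus isotype and 2 for anti-IFNAR1 minus syngeneic at day 14, 3, 1 and 1 for day 28 minus day 14 in isotype, anti-IFNAR1 and syngeneic skin, and 3 for the interaction of anti-IFNAR1 minus isotype with day. Fitting only the arrays compared gave 0 for isotype minus syngeneic at day 14 and 0 for isotype skin between days. Without the arrays of high Gapdh ratio these were 2 and 0. The hair follicle mean as a covariate and the removal of high hair follicle arrays each gave 0 for isotype skin between days. The replicate block gave 0 there too, and left the counts at 6 and 5 for isotype minus syngeneic at days 28 and 14 and 5 for anti-IFNAR1 minus isotype at day 28. Over 60 pairs of arrays with the same replicate number, deviations from the group means correlated between -0.616 and 0.571, 17 pairs exceeded 0.1, and 3 of 24 arrays were closest to their own number, so the numbers were not taken to pair the samples. Leaving out 1 array gave 5 to 6 keratins for isotype minus syngeneic at day 28, 3 to 5 at day 14, 5 to 6 for anti-IFNAR1 minus isotype at day 28, 0 to 2 at day 14 and 0 to 2 for isotype skin between days. The 3 came without isotype replicates 1, 2 or 3 or syngeneic replicates 3 or 4, the 2 for anti-IFNAR1 minus isotype without isotype replicate 4. Over all genes, fitting only the arrays compared gave 83 calls for isotype minus syngeneic at day 14, against 2472, and array weights gave 4860 for anti-IFNAR1 minus isotype at day 28 and 2596 at day 14. The 17 called keratin changes lost their call in 41 of 371 recomputed settings and reversed in 0, and 30 of 2154 settings gave a call to a change not called. The causes were not tested, apart from fewer arrays where arrays were left out.

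Intensities without detection calls or a stated normalization limit these results, as do 4 arrays per group, 1 estimate of spread over 6 groups, and the near-identical sequences of some keratins. Fewer keratinocytes and less RNA per cell cannot be told apart.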

Other observations

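Of 16 other keratins measured outside the hair shaft, 2 were lower and 0 higher in isotype than in syngeneic skin at day 28, and 2 were higher and 0 lower in anti-IFNAR1 than in isotype skin, with medians of -0.53 and 0.34. These shares are near the background, since 9.69% of all genes were called lower in the first comparison and 8.42% higher in the second. The 2 lower were Krt75 and Krt24, and the 2 higher Krt75 and Krt4. Krt75, a type II keratin of the companion layer of the follicle, read 779, 5609, 807 and 628 units in anti-IFNAR1 skin, 197, 29, 168 and 199 units in isotype skin, and 792, 675, 1831 and 1660 units in syngeneic skin at day 28. Every isotype array was below both other groups, the opposite of Krt6a, which the companion layer also makes. The change of Krt75 was -3.04 ± 0.65 for isotype minus syngeneic (adjusted p = 0.003) and 3.15 ± 0.65 for anti-IFNAR1 minus isotype (adjusted p = 0.0031). The highest Krt75 value was on anti-IFNAR1 replicate 2, the array with the highest hair follicle mean. Krt24, a type I keratin, was lower in isotype than in syngeneic skin at day 28 (-0.94 ± 0.31, adjusted p = 0.044) and not called in anti-IFNAR1 against isotype skin (0.20 ± 0.31, adjusted p = 0.87).

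The probe set annotated to both Krt14 and Krt17 read 7.58 to 15.31 units over the 24 arrays, near the background, and was used in no test.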
